A study of Mus musculus with 12 samples.

Results

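Grap2, Runx1t1, Chst10, Agtr1a and Reln are 5 genes measured in red cell precursors of CD70-transgenic mice with and without the gene for interferon-gamma, Ifng. They were picked from earlier results of the same arrays, for a negative interaction between transgene and Ifng genotype or for higher expression in CD70TG*Ifng-/- than in CD70TG mice, and are 5 of 19935 genes measured. The values of those comparisons therefore chose the genes and are given here as a description, without a test.

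Marrow came from the hind legs of male C57BL/6J mice aged 10 to 12 weeks. Its red cell precursors were enriched with magnetic beads through CD71, a name for the transferrin receptor. The 12 arrays fall into 4 groups of 3 mice: CD70TG*Ifng-/- (transgenic mice that lack Ifng), CD70TG (transgenic mice with Ifng, labelled as clone F13), Ifng-/- (mice that lack Ifng and have no transgene) and WT (neither change). CD70 binds CD27, a costimulatory receptor on T cells, and interferon-gamma is a cytokine that activated T cells secrete. The labels do not say what drives the transgene or which part of Ifng was removed, and for CD70TG they name 1 clone.

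Every value is a log2 value from a 1-colour array, deposited relative to that gene's own median over the 12 arrays, so 0 is the median of the gene and levels of different genes cannot be compared. A difference of 1 is a 2-fold difference. The arrays' medians over all probe sets lay between -0.021 and 0.027. The rounding of the deposited numbers still holds a trace of the signal before the median was taken away. It shows whether a probe set's log2 signal was at least 8 on all 12 arrays. The other class, called 4 to 8 here, holds probe sets below 8 on at least 1 array and below 4 on none. Their signal can exceed 8 on other arrays. All 9 measured genes of a red cell identity list, among them Tfrc (CD71 itself), were in the class of at least 8. All 12 T cell, 10 mast cell and basophil, 10 megakaryocyte, 16 stroma and endothelium, 16 macrophage and 13 B cell markers measured were in the class of 4 to 8, with 4 of 14 neutrophil markers in the higher class. Over all probe sets, 24457 of 28815 were in the class of 4 to 8. Vcam1, a macrophage marker in this class, differed by -4.21 between CD70TG*Ifng-/- and Ifng-/-, so the class does not give the level in each group. Ifng, the targeted gene, overlapped between all groups on its probe set, with -0.109, 0.200 and 0.021 in CD70TG*Ifng-/- mice, -0.108, 0.051 and 0.014 in CD70TG mice, -0.162, -0.014 and -0.025 in Ifng-/- mice and 0.027, -0.093 and 0.165 in WT mice. It therefore does not check the labels. Cd70 was 0.33 ± 0.08 (SE) higher with the transgene, averaged over both Ifng genotypes (limma, adjusted p = 0.0324). The interferon-gamma-induced transcription factor Irf1 was 1.01 ± 0.13 lower in CD70TG*Ifng-/- than in CD70TG (adjusted p = 0.000756).

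The 5 genes do different work. Grap2 encodes Gads, an adaptor that joins the scaffold LAT to SLP-76 below the T cell receptor and is also made in platelets and their precursors. Runx1t1 encodes ETO, a transcriptional corepressor best known as the fusion partner of RUNX1 in human acute myeloid leukaemia. Chst10 encodes the sulfotransferase that completes the HNK-1 carbohydrate on glycoproteins. Agtr1a encodes the main angiotensin II receptor of the mouse, a G protein-coupled receptor. Reln encodes reelin, a large secreted matrix glycoprotein that acts through the receptors Vldlr and Lrp8 and is best known for positioning neurons.

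Each gene was measured by 1 probe set. The 5 genes were all higher in CD70TG*Ifng-/- than in CD70TG mice, so sequences before their annotated starts are shown where available. The RefSeq promoter table of build GRCm38.p6 holds an entry for 3 of them, Grap2, Chst10 and Reln. The build used for the arrays is not given in the sources used here. Runx1t1 and Agtr1a have no entry in the promoter table and are named only. Each sequence is the 250 bases before the start, 5′ to 3′ on the gene's strand, at chr15:80623233-80623482 (plus strand) for Grap2, chr1:38898161-38898410 (minus strand) for Chst10 and chr5:22344706-22344955 (minus strand) for Reln. Capitals mark matches, on either strand, to the motifs listed after them other than the E-box.
Grap2: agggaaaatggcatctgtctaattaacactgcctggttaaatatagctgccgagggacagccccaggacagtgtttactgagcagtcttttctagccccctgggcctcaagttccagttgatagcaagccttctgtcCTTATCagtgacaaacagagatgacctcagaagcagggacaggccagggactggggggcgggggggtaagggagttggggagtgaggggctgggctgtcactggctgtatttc
Chst10: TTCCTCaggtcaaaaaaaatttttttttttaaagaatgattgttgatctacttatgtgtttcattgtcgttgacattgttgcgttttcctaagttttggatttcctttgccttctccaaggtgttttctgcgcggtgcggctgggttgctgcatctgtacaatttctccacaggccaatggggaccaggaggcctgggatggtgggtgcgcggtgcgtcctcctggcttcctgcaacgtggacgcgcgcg
Reln: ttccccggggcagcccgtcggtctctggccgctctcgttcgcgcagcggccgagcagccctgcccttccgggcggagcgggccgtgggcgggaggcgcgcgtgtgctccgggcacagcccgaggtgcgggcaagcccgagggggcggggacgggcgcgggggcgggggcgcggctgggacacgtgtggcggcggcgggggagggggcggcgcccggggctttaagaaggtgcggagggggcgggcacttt
The Grap2 window lies inside the span of the gene, ahead of one of its starts, and the end of the Chst10 window also lies inside that gene's span. The 3 sequences differed in base composition. G and C made up 54.4% of the bases for Grap2, 48.8% for Chst10 and 80.0% for Reln, against a median of 52.4% over the 32851 windows of the table. The windows held 2, 13 and 37 CpG dinucleotides, with a median of 6 in the table. The letters searched for were TTCNNNGAA (the gamma-activated site, GAS), the core of the interferon-stimulated response element (2 copies of GAAA with 2 bases between them), GATAAG (bound by GATA factors), TGTGGT (bound by RUNX factors), GAGGAA (the core bound by PU.1) and CANNTG (the E-box, not marked in capitals). Neither of the interferon motifs matched in any of the 3 windows. They matched in 7.02% and 2.98% of all windows. Grap2 held 1 match to GATAAG, at position -113 from the start (6.55% of all windows hold one), and Chst10 held 1 match to GAGGAA at position -250 (23.3% of all windows). No window of the 3 matched TGTGGT (14% of all windows). The E-box matched in all 3 windows, with 2 matches in Grap2, 1 in Chst10 (at -99) and 1 in Reln (at -71), and in 66.2% of all windows. No match says only that these letters are not in this window.

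The name under which the genes were grouped, repressed by the transgene only with Ifng, described 4 of them. Grap2, Runx1t1, Chst10 and Agtr1a were lower in all 3 CD70TG mice than in any of the other 9 mice. Reln did not have this pattern. Its CD70TG values overlapped those of WT, and it was instead higher in all 3 CD70TG*Ifng-/- mice than in any other mouse. Over all genes, 1.6% lay below the other 9 arrays in CD70TG and 0.843% lay above them in CD70TG*Ifng-/-. In the plot of values by array the CD70TG points stand below the rest in 4 panels, and the CD70TG*Ifng-/- points stand above it in the panel of Reln.

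**Figure D1:**
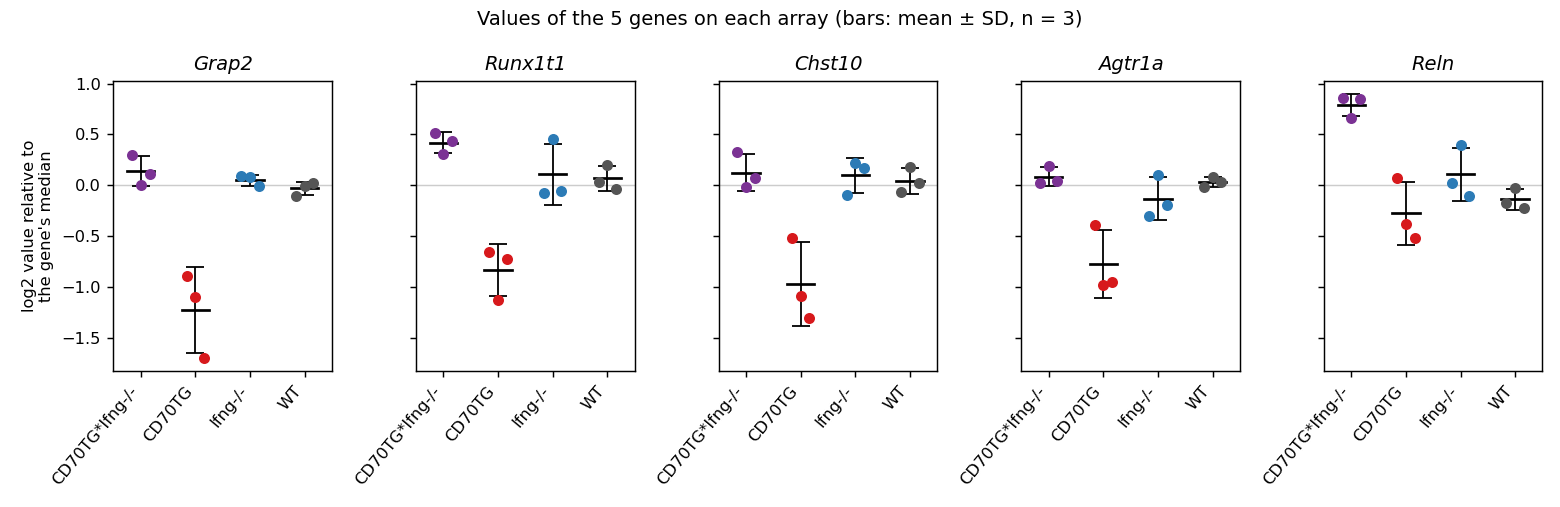
Log2 value of each gene relative to its median over the 12 arrays, by genotype, with 1 dot per mouse and black bars for the mean ± SD (n = 3). Grap2, Runx1t1, Chst10 and Agtr1a were lowest in the 3 CD70TG mice, and Reln was highest in the 3 CD70TG*Ifng-/- mice, at 0.665 to 0.855.

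Of the 5 genes, Grap2 differed most between CD70TG and WT and between CD70TG*Ifng-/- and CD70TG. Its values were 0.300, 0.005 and 0.112 in CD70TG*Ifng-/- mice, -0.889, -1.095 and -1.697 in CD70TG mice, 0.087, 0.077 and -0.011 in Ifng-/- mice and -0.110, -0.005 and 0.019 in WT mice. The other 9 mice lay between -0.110 and 0.300, above all 3 CD70TG mice. Grap2 was 2.29-fold lower in CD70TG than in WT (a log2 difference of -1.20 ± 0.15, SE from the fit, 3 mice in each group), and differed by 0.09 ± 0.15 between CD70TG*Ifng-/- and Ifng-/-. The SE takes 1 spread for all groups, while the SD was 0.42 in CD70TG and 0.069 in WT. It therefore understates the spread of the CD70TG mice. The interaction, the transgene difference with Ifng minus that without it, was -1.28 ± 0.21. Without CD70TG mouse 3, the lowest, the first difference was -0.96 and the interaction -1.05. The probe set of Grap2 was in the signal class of at least 8 on all 12 arrays, CD70TG included.

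Runx1t1 measured 0.515, 0.306 and 0.434 in CD70TG*Ifng-/- mice, -0.661, -1.131 and -0.721 in CD70TG mice, -0.081, 0.455 and -0.055 in Ifng-/- mice and 0.035, 0.199 and -0.035 in WT mice. The CD70TG group was apart from the other 3 groups, while Ifng-/- mouse 2 reached into the range of CD70TG*Ifng-/-. Expression was 1.87-fold lower in CD70TG than in WT (-0.90 ± 0.14), and the difference was of the other sign without Ifng, at 0.31 ± 0.14 between CD70TG*Ifng-/- and Ifng-/- (95% interval 0.00 to 0.62). The interaction was -1.22 ± 0.20. Quantile normalization of the deposited values, which makes their distribution alike on every array, gave a difference without Ifng of 0.67. Those values were already relative to the median, so this is not quantile normalization of signals. The corepressor's transcript was in the class of 4 to 8.

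Chst10 followed Grap2 closely. Its values were 0.327, -0.021 and 0.068 in CD70TG*Ifng-/- mice, -0.514, -1.092 and -1.305 in CD70TG mice, -0.096, 0.216 and 0.173 in Ifng-/- mice and -0.069, 0.176 and 0.021 in WT mice. Apart from CD70TG the groups overlapped one another. The sulfotransferase was 2.02-fold lower in CD70TG than in WT (-1.01 ± 0.16), against a difference of 0.03 ± 0.16 between CD70TG*Ifng-/- and Ifng-/-, which gives an interaction of -1.04 ± 0.23. The signal was in the class of 4 to 8.

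Agtr1a measured 0.019, 0.191 and 0.040 in CD70TG*Ifng-/- mice, -0.390, -0.982 and -0.948 in CD70TG mice, -0.302, 0.10 and -0.192 in Ifng-/- mice and -0.019, 0.078 and 0.033 in WT mice. CD70TG mouse 1 lay just below the lowest Ifng-/- mouse, and the other 2 CD70TG mice were lower still. The angiotensin receptor gene was 1.75-fold lower in CD70TG than in WT (-0.80 ± 0.14), against 0.21 ± 0.14 between CD70TG*Ifng-/- and Ifng-/-. The interaction was -1.02 ± 0.20. On all 12 arrays the probe set was in the class of at least 8.

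Reln measured 0.855, 0.665 and 0.845 in CD70TG*Ifng-/- mice, 0.076, -0.382 and -0.522 in CD70TG mice, 0.023, 0.397 and -0.102 in Ifng-/- mice and -0.174, -0.023 and -0.221 in WT mice. The CD70TG mice spanned the WT range, whereas all 3 CD70TG*Ifng-/- mice lay above the Ifng-/- mice. The difference between CD70TG and WT was -0.14 ± 0.15 (95% interval -0.45 to 0.17), and that between CD70TG*Ifng-/- and Ifng-/- was 0.68 ± 0.15, a 1.60-fold higher value. Its interaction was -0.82 ± 0.21. With the same quantile normalization of median-relative values the interaction was -1.47 and the difference without Ifng 1.32. With 1 array left out, CD70TG minus WT lay between -0.31 (without CD70TG mouse 1) and -0.01 (without CD70TG mouse 3). The signal of this gene was in the class of 4 to 8.

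**Figure D2:**
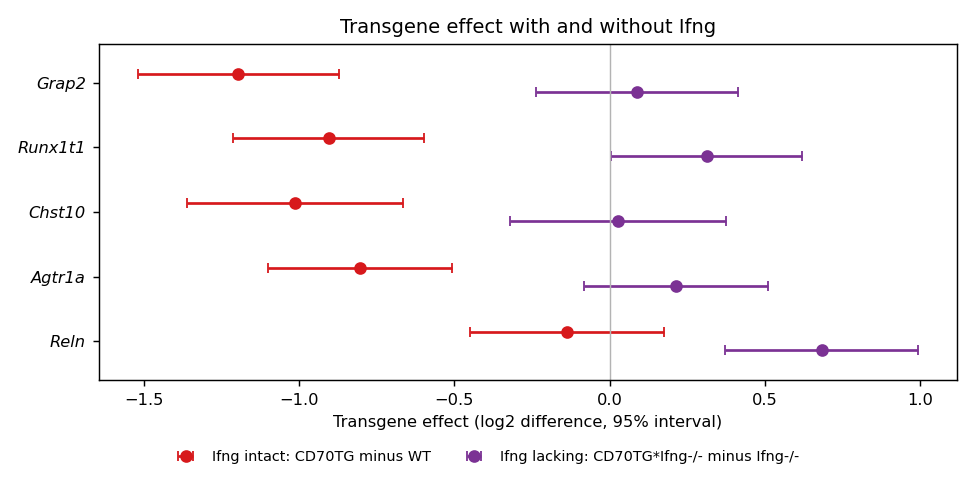
Log2 difference made by the transgene in each gene, with its 95% interval from the fit to 12 arrays, in mice with Ifng (CD70TG minus WT) and in mice without it (CD70TG*Ifng-/- minus Ifng-/-). Each interval takes 1 spread per gene for all groups, although the SD was highest in CD70TG for all but Runx1t1. The intervals with Ifng lie below 0 for 4 genes, from -1.20 for Grap2 to -0.80 for Agtr1a, and those of Reln and Runx1t1 without Ifng lie above 0, for Runx1t1 only just (0.00 to 0.62).

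Ifng loss in transgenic mice went with higher values of all 5 genes. CD70TG*Ifng-/- exceeded CD70TG by 1.37 ± 0.15 for Grap2, 1.26 ± 0.14 for Runx1t1, 1.09 ± 0.16 for Chst10, 1.06 ± 0.15 for Reln and 0.86 ± 0.14 for Agtr1a. In each gene the 3 CD70TG*Ifng-/- mice lay above the 3 CD70TG mice, as they did in 9.31% of all genes. By the fit's own threshold 0.426% of all genes passed as higher there. Between CD70TG and WT, 4 of the 5 genes were lower with no overlap, against 13.5% of all genes (2.7% passed the test as lower), and between CD70TG*Ifng-/- and Ifng-/- only Reln was higher with no overlap, against 9.32% of all genes (0.156% passed as higher). Since the rule used these arrays, the counts are a description. The median difference of the 5 genes was -0.90 between CD70TG and WT and 0.21 between CD70TG*Ifng-/- and Ifng-/-, where the medians of all genes were -0.02 and 0.04.

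The list gives no numerical limit for its members. Ordered by interaction from the most negative of all 19935 genes, the members held ranks 1 (Grap2), 2 (Runx1t1), 4 (Chst10), 6 (Agtr1a) and 13 (Reln). A further 8 genes that are no members lay among them, at -1.04 to -0.82, and the genes of ranks 14 and 15 had -0.80 and -0.79. In the same fit, 0.281% of all genes were called with a negative interaction and 1.61% with a positive one at an adjusted p under 0.05.

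Without the transgene, mice lacking Ifng overlapped WT mice in all 5 genes. Ifng-/- minus WT was 0.08 ± 0.15 for Grap2, 0.04 ± 0.14 for Runx1t1, 0.06 ± 0.16 for Chst10, -0.16 ± 0.14 for Agtr1a and 0.25 ± 0.15 for Reln, where 9.17% of all genes were lower and 9.43% higher with no overlap. The 95% intervals reached as far as -0.46 for Agtr1a and 0.56 for Reln, so differences of that size cannot be told from none with 3 mice a group. Over all genes 0.00502% were called in this comparison. The order of the group means was CD70TG*Ifng-/-, Ifng-/-, WT and CD70TG for Grap2, Runx1t1 and Chst10, and neighbours among the first 3 overlapped. For Agtr1a it was CD70TG*Ifng-/-, WT, Ifng-/- and CD70TG, with overlap of WT with both its neighbours. For Reln it was CD70TG*Ifng-/-, Ifng-/-, WT and CD70TG, and each of the last 3 overlapped the next.

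One comparison weights the 4 groups so that it is orthogonal to both comparisons that the choice of genes used: the average of the 2 transgene differences. Averaged in this way, Grap2 was lower with the transgene (-0.55 ± 0.11, limma, adjusted p = 0.0061), as was Chst10 (-0.49 ± 0.12, adjusted p = 0.0194). Runx1t1 (-0.30 ± 0.10, adjusted p = 0.098), Agtr1a (-0.29 ± 0.10, adjusted p = 0.0873) and Reln (0.27 ± 0.10, adjusted p = 0.134) did not pass, but Agtr1a passed without CD70TG mouse 1 (-0.39, adjusted p = 0.00638) and Reln without Ifng-/- mouse 2 (0.35, adjusted p = 0.026). Agtr1a also passed with centring within signal classes. It passed among genes of the higher class alone, where fewer genes were tested and the difference stayed at -0.29. Reln passed with quantile normalization of the median-relative values. In all, 3.58% of genes passed as lower and 3.41% as higher. The average pools the unequal differences given above for mice with and without Ifng. It is independent of the choice only if mice of all groups vary alike, and for 4 of the 5 genes the SD was highest in CD70TG. For Grap2 the SD was 0.42 in CD70TG and 0.149 in CD70TG*Ifng-/-. Choosing genes high in CD70TG*Ifng-/- over CD70TG can then push the average down, the direction of the Grap2 and Chst10 calls. The adjusted p-values of the 5 genes are therefore not free of the choice. The limma call of Chst10 was lost without mouse 2 of CD70TG, mouse 3 of Ifng-/- or mouse 3 of CD70TG*Ifng-/- (adjusted p = 0.0578, 0.0526 and 0.0536).

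**Figure D3:**
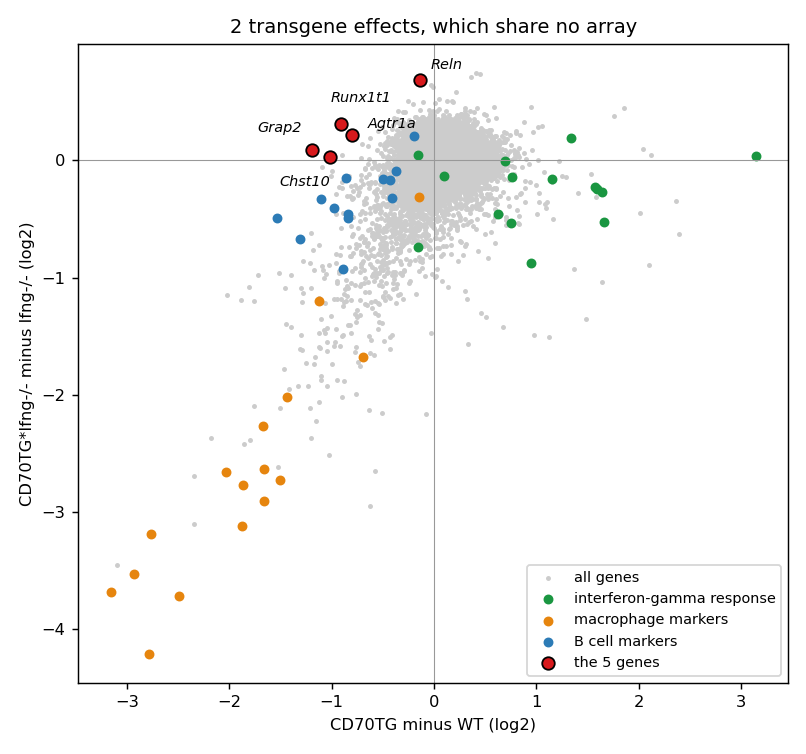
Each dot is a gene, placed by its log2 transgene difference with Ifng (x axis, CD70TG minus WT) and without Ifng (y axis, CD70TG*Ifng-/- minus Ifng-/-), which have no array in common. Grap2, Runx1t1, Chst10 and Agtr1a lie left of the cloud near the horizontal line at 0 and Reln above it, while most macrophage markers are low on both axes and interferon-gamma response genes lie to the right.

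Pooled over the 4 groups, the 5 genes varied more among mice of a group than most genes did. For all but Runx1t1 the spread was largest in CD70TG. For Grap2 the values spanned 0.808 in CD70TG, 0.294 in CD70TG*Ifng-/-, 0.129 in WT and 0.098 in Ifng-/-. The pooled residual SD of the 5 genes stood between percentile 94.4 (Agtr1a) and percentile 97.3 (Chst10) of all genes. Mouse 1 of the CD70TG group was its highest for all 5 genes, and the mean of the 5 genes was -0.475 in CD70TG 1, -0.936 in CD70TG 2 and -1.039 in CD70TG 3. The same mouse had the smallest interferon-gamma response: the mean of 15 such genes was 0.787 in CD70TG 1, 1.220 in CD70TG 2 and 1.280 in CD70TG 3. It was also the lowest CD70TG mouse for the T cell, mast cell and basophil, megakaryocyte, stroma, neutrophil and macrophage lists, and the highest for the red cell identity list (0.038, against 0.022 and -0.172 in the other CD70TG mice). In CD70TG*Ifng-/- mice, mouse 1 was highest for 4 of the 5 genes, and among Ifng-/- mice, mouse 2 was highest for 4 of the 5. Ifng-/- mouse 2 was also the lowest of its group for those marker lists and the B cell list. It was the highest for the red cell identity list (0.057, against -0.120 and -0.056). Over all genes, deviations of CD70TG mouse 1 from its group mean correlated with those of Ifng-/- mouse 2 (r = 0.525) and CD70TG*Ifng-/- mouse 1 (r = 0.311). Such an order of mice was thus not particular to the 5 genes. With 3 mice a group, no relation between mice was tested.

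The interferon-gamma response moved opposite to Grap2, Runx1t1, Chst10 and Agtr1a in CD70TG mice. Of 15 measured genes of that list, 12 rose in CD70TG against WT and 0 fell, 12 fell in CD70TG*Ifng-/- against CD70TG and 0 rose, and 2 fell between CD70TG*Ifng-/- and Ifng-/- with 0 rising, against 8.23%, 0.988% and 2.35% of all genes in those directions. The peptide transporter Tap1 and the immunoproteasome subunit Psmb9 fell in CD70TG*Ifng-/- against CD70TG (-2.04 ± 0.15 and -1.98 ± 0.14, adjusted p = 3.25e-06 and 2.59e-06). These genes were known to respond when the lists were written. The comparisons that share the CD70TG arrays are not independent of one another.

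Genes known to act with the 5 gene products were set beside them. Of 92 measured genes in 5 partner lists, 0 had a negative interaction that passed the test and 1 a positive one (limma, 19 at an unadjusted p under 0.05 in either direction), against 0.281% and 1.61% of all genes and 20.3% at the unadjusted p. Between CD70TG*Ifng-/- and CD70TG, 0 rose and 1 fell (12 at an unadjusted p under 0.05), against 0.426% and 0.988% of all genes and 11.2% at the unadjusted p.

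Of 18 genes that signal with Gads, none passed in these 2 comparisons (3 in each at an unadjusted p under 0.05). The direct partner Lcp2, which encodes SLP-76, fell by 1.12 ± 0.20 in CD70TG*Ifng-/- against Ifng-/- (adjusted p = 0.00443), and measured -0.64 ± 0.20 in CD70TG against WT (adjusted p = 0.0523). The scaffold Lat measured -0.10 ± 0.09 in CD70TG against WT (adjusted p = 0.502). The adaptor Fyb fell by 1.05 and the kinase Syk by 0.77 without Ifng, and Syk fell by 0.71 with it, where the exchange factor Sos1 rose by 0.36. The kinase substrate Plcg1 (interaction 0.11, adjusted p = 0.599) and the costimulatory receptor Cd28 (-0.39, adjusted p = 0.124) were not called. All 18 were in the class of 4 to 8.

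Of 20 genes of the ETO family and its RUNX and TAL1 complexes, 3 rose in CD70TG against WT and 0 fell, against 8.23% of all genes higher. They were the histone deacetylase Hdac3 (0.48 ± 0.09, adjusted p = 0.00402), the bridging factor Ldb1 (0.40 ± 0.10, adjusted p = 0.021) and the E protein Tcf12 (0.40 ± 0.11, adjusted p = 0.0388). None passed in the interaction (3 at an unadjusted p under 0.05) or in CD70TG*Ifng-/- against CD70TG (1 at that p), where Lmo2 measured 0.15 ± 0.07 (adjusted p = 0.445). The 2 relatives of Runx1t1 were not called: in CD70TG against WT, Cbfa2t2 measured 0.12 ± 0.09 and Cbfa2t3 -0.08 ± 0.09 (adjusted p = 0.431 and 0.607).

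Of 20 genes of carbohydrate sulfation measured with Chst10, none passed in any comparison. At an unadjusted p under 0.05 there were 2 in the interaction, 1 in CD70TG*Ifng-/- against CD70TG, 1 in CD70TG against WT and 3 in CD70TG*Ifng-/- against Ifng-/-. The genes with the smallest p in the interaction were the sulfotransferases Chst1 (interaction -0.35 ± 0.13, adjusted p = 0.174) and Chst5 (-0.27 ± 0.12, adjusted p = 0.227) and that with the smallest p between CD70TG*Ifng-/- and CD70TG was Papss1 (0.24 ± 0.08, adjusted p = 0.252), which makes the sulfate donor. B3gat1, whose enzyme adds the glucuronic acid that Chst10 sulfates, had an interaction of -0.19 ± 0.16 (adjusted p = 0.481).

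Of 16 renin-angiotensin genes, 1 fell in CD70TG*Ifng-/- against CD70TG, Ctsg (-1.58 ± 0.32, adjusted p = 0.0245). It encodes cathepsin G, a protease of neutrophil granules, and the neutrophil granule genes Mpo (-1.496, adjusted p = 0.0419) and Prtn3 (-1.29, adjusted p = 0.0343) fell with it. The aminopeptidase Rnpep fell by 0.75 ± 0.18 in CD70TG*Ifng-/- against Ifng-/- (adjusted p = 0.0434). The ligand's precursor Agt had an interaction of -0.22 ± 0.14 (adjusted p = 0.39), the converting enzyme Ace of -0.13 ± 0.11 (adjusted p = 0.478) and the second receptor type Agtr2 of 0.22 ± 0.13 (adjusted p = 0.344).

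Of 18 genes of reelin signalling, 1 had an interaction that passed, Apoe (1.09 ± 0.24, adjusted p = 0.0379), of the sign opposite to Reln. Apoe, a lipid carrier abundant in macrophages, fell in CD70TG*Ifng-/- against Ifng-/- (-2.61 ± 0.17) and in CD70TG against WT (-1.52 ± 0.17). The reelin receptors Vldlr (interaction -0.31 ± 0.11, adjusted p = 0.152) and Lrp8 (0.18 ± 0.10, adjusted p = 0.302) and the adaptor Dab1 (0.06 ± 0.11, adjusted p = 0.759) were not called. The kinase Fyn, which acts on Dab1, fell by 0.73 ± 0.12 without Ifng (adjusted p = 0.00198). The adaptor Nck2 (0.29), Crk (0.38) and Itgb1 (0.28) rose in CD70TG against WT.

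Markers of other marrow cells were set beside the 5 genes. In bulk RNA, fewer cells of a type and less RNA per cell cannot be told apart. Of 12 T cell markers, 10 mast cell and basophil markers and 10 megakaryocyte markers, none passed in the interaction (3, 1 and 2 at an unadjusted p under 0.05). The mean of the T cell list ranged from -0.123 to 0.068 in CD70TG*Ifng-/- mice, -0.162 to -0.005 in CD70TG mice, -0.097 to 0.195 in Ifng-/- mice and 0.053 to 0.135 in WT mice. The megakaryocyte list ranged from -0.018 to 0.075, -0.051 to 0.082, -0.078 to 0.057 and -0.004 to 0.026 in the same order of groups, and the mast cell and basophil list from -0.145 to -0.060, -0.249 to 0.258, -0.252 to 0.289 and 0.031 to 0.089. In CD70TG against WT, 2 T cell markers fell, Cd4 and the interleukin-7 receptor gene Il7r (-0.69), and 0 of the mast cell and basophil markers passed (2 at an unadjusted p under 0.05). Cd4 fell in both transgene comparisons (-0.52 with Ifng and -1.03 without), and the thrombin receptor F2r fell by 0.54 in CD70TG*Ifng-/- against CD70TG (adjusted p = 0.0153). In CD70TG against WT 1 megakaryocyte marker rose, F2r (0.67, adjusted p = 0.00143), and 1 fell, the platelet receptor gene Clec1b (-0.28, adjusted p = 0.0301). The named markers Itga2b (interaction -0.33, adjusted p = 0.128), Tpsb2 (-0.29, adjusted p = 0.194) and Mcpt4 (-0.22, adjusted p = 0.315) were not called.

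Stroma and B cell markers were counted in the same way. Of 16 stroma and endothelium markers, 0 passed in the interaction (4 at an unadjusted p under 0.05), and 1 rose in CD70TG*Ifng-/- against CD70TG, the collagen chain Col1a2 (0.44 ± 0.10, adjusted p = 0.0383). Col1a2 measured -0.18 ± 0.10 in CD70TG against WT (adjusted p = 0.264), and Sparc 0.32 ± 0.10 in CD70TG*Ifng-/- against CD70TG (adjusted p = 0.165). In CD70TG against WT 2 stroma markers fell, the kit ligand gene Kitl (-0.53) and the scavenger receptor gene Stab2 (-0.31), and Kitl also fell in CD70TG*Ifng-/- against Ifng-/- (-0.45). The mean of the stroma list ranged from 0.020 to 0.063 in CD70TG*Ifng-/- mice, -0.144 to -0.009 in CD70TG mice, -0.051 to 0.039 in Ifng-/- mice and -0.007 to 0.115 in WT mice. Its CD70TG values thus lay below those of CD70TG*Ifng-/-, only just below those of WT (-0.009 against -0.007), and overlapped those of Ifng-/-. Of 13 B cell markers, 2 had a negative interaction that passed, the antigen receptor chain Cd79a (-1.04 ± 0.22, adjusted p = 0.0299) and Vpreb3 (-0.71 ± 0.17, adjusted p = 0.0463). In CD70TG against WT 12 of the 13 fell, and in CD70TG*Ifng-/- against Ifng-/- 2 fell. The B cell list ranged from -0.164 to -0.029 in CD70TG*Ifng-/- mice, -0.524 to -0.416 in CD70TG mice, 0.022 to 0.406 in Ifng-/- mice and 0.127 to 0.511 in WT mice, so it was lowest in CD70TG as the 4 genes were, and unlike them it was also lower in CD70TG*Ifng-/- than in WT. The part of these cells in the values of the 5 genes was not tested.

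Macrophage and neutrophil markers differed between groups in another way. Of 16 macrophage markers, 15 fell in CD70TG against WT and 15 in CD70TG*Ifng-/- against Ifng-/-, with medians of -1.77 and -2.75, whereas the differences of the 5 genes in the second comparison lay between 0.03 and 0.68. The macrophage list ranged from -1.354 to -1.285 in CD70TG*Ifng-/- mice, -0.983 to -0.725 in CD70TG mice, 1.136 to 1.537 in Ifng-/- mice and 0.752 to 1.400 in WT mice. The complement gene C1qc and the adhesion molecule Vcam1 had interactions of 1.25 ± 0.20 and 1.43 ± 0.26 (adjusted p = 0.00955 and 0.018), opposite in sign to those of the 5 genes. The neutrophil list ranged from -0.469 to -0.157 in CD70TG*Ifng-/- mice, -0.223 to 0.149 in CD70TG mice, -0.575 to 1.685 in Ifng-/- mice and 0.803 to 0.931 in WT mice, and Ifng-/- mouse 1 held the highest value. Of the 14 neutrophil markers, 4 fell and 1 rose in CD70TG against WT, with a median of -1.24. All 14 had an unadjusted p under 0.05 there (limma), against 26.3% of all genes. The red cell identity list stayed within -0.172 to 0.072 on all arrays, and CD70TG mouse 3 was the lowest. Of its 9 genes, 0 passed in the interaction (limma, 0 at an unadjusted p under 0.05), with Alas2, the first enzyme of haem synthesis in red cells, at -0.23 ± 0.11 (adjusted p = 0.262; it fell by 0.43 in CD70TG against WT, adjusted p = 0.00393) and the anion exchanger Slc4a1 at -0.19 ± 0.10 (adjusted p = 0.291).

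**Figure D4:**
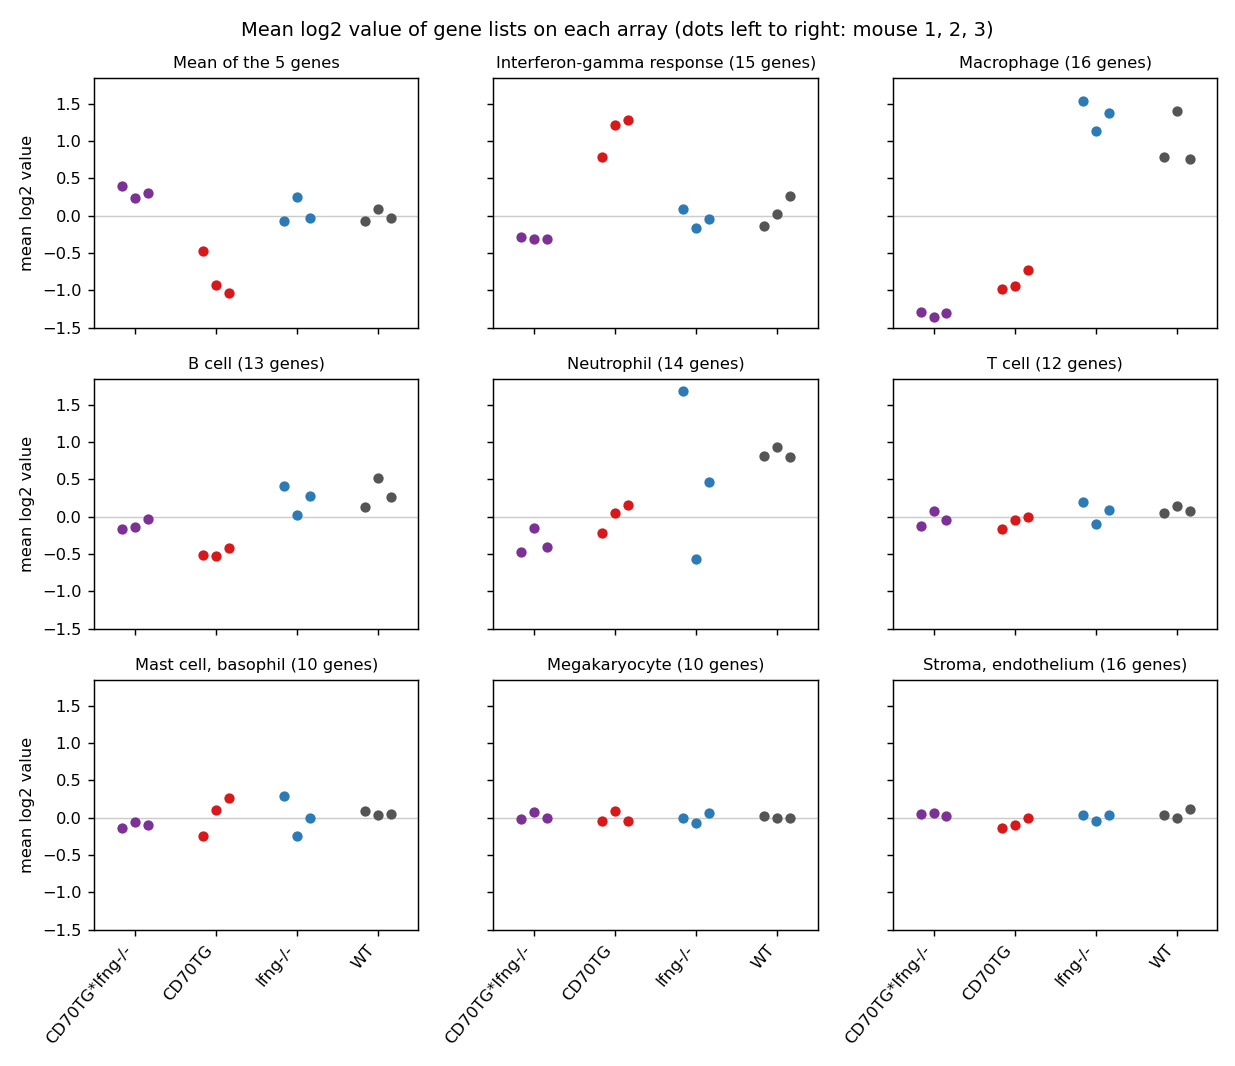
Mean log2 value of the 5 genes and of 8 gene lists on each array, with 1 dot per mouse by genotype. The interferon-gamma response is high in CD70TG, where the mean of the 5 genes is low, and the macrophage list is low in both transgenic groups. The T cell, megakaryocyte and stroma lists stay between -0.162 and 0.195. Within that range the T cell list is lower in CD70TG than in WT, and the stroma list is lower in CD70TG than in CD70TG*Ifng-/-. Against WT the stroma list is only just apart (highest CD70TG mouse -0.009, lowest WT mouse -0.007).

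Profiles were compared by the root mean square difference over the 12 arrays, after each gene was centred on its mean. Grap2 and Chst10 were the nearest pair of the 5 (0.163), against spreads of 0.587 for Grap2 and 0.502 for Chst10 around their means, and Grap2 and Reln the farthest (0.455). Next to Grap2 lay Chst10, the calcitonin receptor-like gene Calcrl (0.216) and the mitochondrial sulfide oxidase gene Sqor (0.244). Next to Runx1t1 lay Agtr1a (0.215), Chst10 (0.225) and the synaptotagmin Syt14 (0.236), and next to Chst10 lay Grap2, Sqor (0.179) and the mitochondrial carrier Slc25a24 (0.196). Agtr1a had closer neighbours outside the list than within it, the lysosomal protease Ctsf (0.108), the fatty acid transporter Cd36 (0.118) and the pyrophosphate transporter Ank (0.165). The nearest to Reln was Il1rl2, a receptor subunit of the interleukin-1 family (0.119), which was 0.50 higher in CD70TG*Ifng-/- than in Ifng-/- and 0.25 lower in CD70TG than in WT, followed by Fsd1l (0.219) and the phosphatase Phlpp1 (0.223). Nearest to the mean of the 5 genes were Ctsf (0.161), the glypican Gpc4 (0.187), Syt14 (0.190), the co-chaperone Dnaja4 (0.191), the choline transporter Slc44a1 (0.197) and Sqor (0.197). All 13 of these genes outside the list had negative interactions, from -0.90 for Calcrl to -0.39 for Phlpp1, which follows from their choice by likeness.

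**Figure D5:**
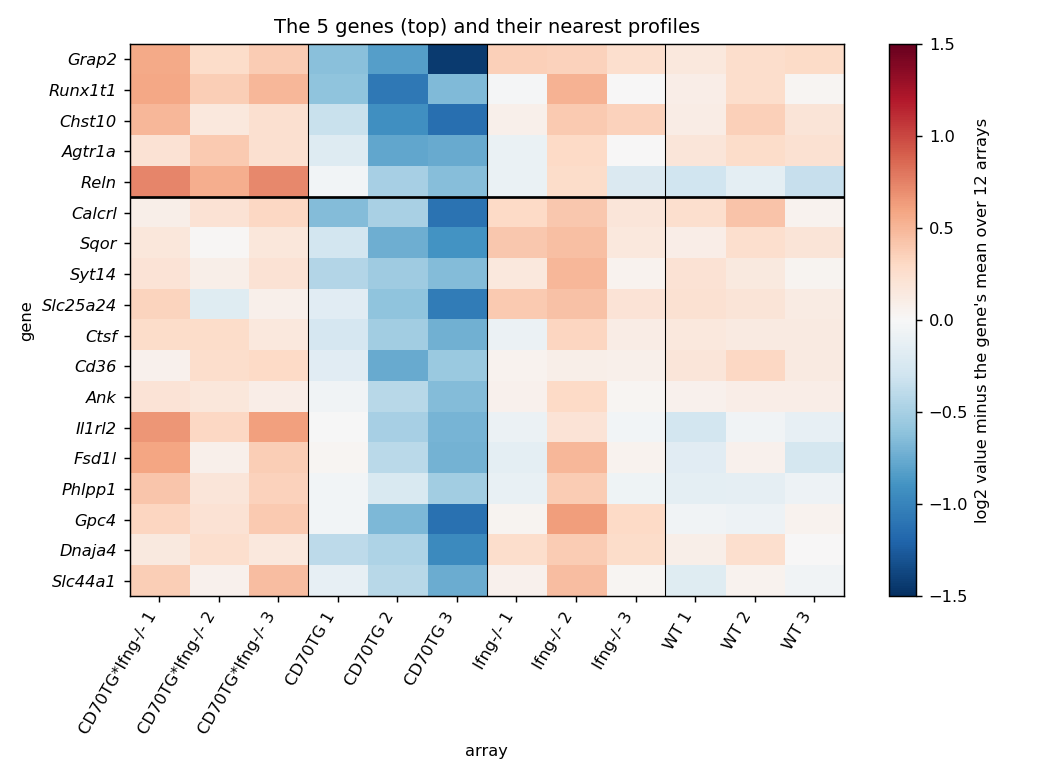
Log2 value of the 5 genes and of the 13 genes with the nearest profiles, each minus its mean over the 12 arrays, with blue for lower and red for higher. The CD70TG columns are blue in nearly all genes, deepest for Grap2 in CD70TG 3, and the CD70TG*Ifng-/- columns are deepest red for Reln and Il1rl2.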

How the data were processed

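The submitters hybridised RNA of each mouse to a 1-colour whole-transcript Affymetrix array. The deposited log2 values come from RMA, run by the authors, per the submitters' processing notes. The version of RMA is not given in the sources used here. Each of the 28815 probe sets has a median of 0 over the 12 arrays within 0.000001. The cause of this centring is not stated. No label states the log base or direction, and both are taken as RMA gives them.

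Probe sets were named from GEO's platform annotation: 21780 had 1 gene symbol, 1605 several and 5430 none, and only the first were used. Probe sets of 1 gene were averaged (998 of 19935 genes). Signal classes were read from the rounding step of the deposited numbers (tolerance 0.05 of a step, values under 0.001 left out). They put 4358 probe sets at a log2 signal of at least 8 on all 12 arrays. The class of 4 to 8 held the other 24457, which lay below 8 on at least 1 array.

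A model of 4 group means was fitted with limma 3.58.1 in R 4.3.3 (lmFit, eBayes, 8 residual and 6.2 prior degrees of freedom), two-sided, with Benjamini-Hochberg adjustment over 19935 genes and a threshold of 0.05. Only its average transgene difference was tested on simulated data, in which a gene's noise was of equal size in all groups. The simulated data did not cover the interaction or CD70TG*Ifng-/- minus CD70TG. SE and 95% intervals come from the moderated variances, and with 3 arrays a group their number limits the precision.

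The members, lists and tests were chosen with earlier results of these data known. Genes were named by a rule: the 5 members, Ifng, Cd70 and Irf1, from each partner list the 2 genes with the smallest p in the interaction and in CD70TG*Ifng-/- minus CD70TG, from other lists 2 by the interaction, and the nearest profiles (3 per member, 6 for their mean). Called list genes and direct binding partners or family members of the 5 gene products were named after their values were seen. Alternatives were 3 scalings, robust eBayes, single probe sets, the higher signal class alone, each array left out and the replicate number as a block. The scalings were applied to the deposited median-relative values, not to signals. Quantile normalization thus gave every array the same distribution of differences from the median.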

Additional observations from a re-analysis of the deposited data

Results flagged for a closer look

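For 8 named genes outside the list the transgene difference was not the same with and without Ifng, by limma's interaction test over all genes. Higher with Ifng than without it, relative to the mice with no transgene, were Tap1 (1.91, adjusted p = 0.000791), Psmb9 (1.83, adjusted p = 0.000675), Vcam1 (1.43, adjusted p = 0.018), C1qc (1.25, adjusted p = 0.00955), Apoe (1.09, adjusted p = 0.0379) and Irf1 (0.91, adjusted p = 0.0265). Lower were Cd79a (-1.04, adjusted p = 0.0299) and Vpreb3 (-0.71, adjusted p = 0.0463). Vcam1, C1qc and Apoe fell with the transgene in both Ifng genotypes (-2.78, -1.88 and -1.52 with Ifng, -4.21, -3.12 and -2.61 without it).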

How the results depend on the processing

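The sign of the interaction and of CD70TG*Ifng-/- minus CD70TG was kept for all 5 genes under every alternative run. With 1 array left out, the interaction lay between -1.45 and -1.05 for Grap2, -1.39 and -1.07 for Runx1t1, -1.27 and -0.87 for Chst10, -1.21 and -0.91 for Agtr1a, and -0.995 and -0.70 for Reln. For Grap2, CD70TG*Ifng-/- minus CD70TG lay between 1.13 and 1.53 and CD70TG minus WT between -1.36 and -0.96, with the smallest sizes without CD70TG mouse 3. Quantile normalization, run on values already relative to the median, moved Runx1t1 to -1.47 (interaction), 1.53 (CD70TG*Ifng-/- minus CD70TG) and 0.67 (CD70TG*Ifng-/- minus Ifng-/-). It moved Reln to -1.47, 1.71 and 1.32. In the average transgene difference the adjusted p-values of the 5 genes are not free of their choice, as said above. That difference passed limma's test for Agtr1a with centring within signal classes (-0.38, adjusted p = 0.0184) and without CD70TG mouse 1 (-0.39, adjusted p = 0.00638). It also passed among genes of the higher class alone (-0.29, adjusted p = 0.0242), where fewer genes were tested. For Reln it passed with quantile normalization (0.58, adjusted p = 0.0166) and without Ifng-/- mouse 2 (0.35, adjusted p = 0.026). With 1 array left out it ranged from -0.61 to -0.41 for Chst10, -0.39 to -0.24 for Agtr1a and 0.19 to 0.35 for Reln. The cause of these changes was not tested.

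Counts of calls changed by more than 1.5 times as follows. Quantile normalization gave 35 genes with a negative interaction, 1063 higher in CD70TG against WT (4 partner genes higher and 4 lower) and 443 higher in the average transgene difference. Centring within signal classes gave 109 genes with a negative interaction, 394 higher in the average, 0 partner genes with a positive interaction and 4 higher in CD70TG against WT. Centring each array on its median gave 20 genes higher in CD70TG*Ifng-/- against Ifng-/-, and robust eBayes gave 0 partner genes lower in CD70TG*Ifng-/- against CD70TG. With fewer genes tested, those of the higher class alone, the counts were 3 partner genes with a positive interaction, 74 genes (0 partners) lower in CD70TG*Ifng-/- against CD70TG, 965 higher and 166 lower (1 partner) in CD70TG against WT, 11 higher and 53 lower (1 partner) in CD70TG*Ifng-/- against Ifng-/-, and 150 lower in the average.

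The replicate number did not pair the mice: of 18 pairs with the same number, 6 had deviations correlated above 0.1 (range -0.401 to 0.311). Pairs with unlike numbers ranged from -0.524 (CD70TG 3 and Ifng-/- 2) to 0.525 (CD70TG 1 and Ifng-/- 2). Arrays of different groups thus shared deviations that the number does not capture. With the number as a replicate block, Grap2 and Chst10 passed in the average transgene difference (limma, adjusted p = 0.00852 and 0.0355). These p-values, too, are not free of the choice of genes. The counts with the block were 112 genes with a positive interaction (0 partners), 16 with a negative one, 3 partner genes higher in CD70TG against WT and 418 genes higher in the average.

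Leaving out 1 array gave 74 (without WT mouse 1) to 614 (without CD70TG*Ifng-/- mouse 1) genes with a positive interaction and 6 (without CD70TG*Ifng-/- mouse 2) to 97 (without CD70TG*Ifng-/- mouse 1) with a negative one. In CD70TG*Ifng-/- against CD70TG, 31 (without CD70TG*Ifng-/- mouse 3) to 102 (without Ifng-/- mouse 2) were higher and 105 (without CD70TG*Ifng-/- mouse 3) to 283 (without CD70TG*Ifng-/- mouse 1) lower. In CD70TG against WT, 511 (without WT mouse 1) to 2017 (without Ifng-/- mouse 2) were higher and 303 (without CD70TG mouse 1) to 713 (without Ifng-/- mouse 1) lower. In CD70TG*Ifng-/- against Ifng-/-, 5 (without CD70TG*Ifng-/- mouse 3) to 124 (without Ifng-/- mouse 2) were higher and 292 (without CD70TG*Ifng-/- mouse 3) to 744 (without Ifng-/- mouse 2) lower. In the average, 246 (without CD70TG*Ifng-/- mouse 1) to 1585 (without Ifng-/- mouse 2) were higher and 526 to 1071 (without the same arrays) lower. Among partner genes the ranges were 0 to 2 with a positive interaction, 0 to 1 lower in CD70TG*Ifng-/- against CD70TG, 1 to 9 higher and 1 to 5 lower in CD70TG against WT, and 4 to 12 lower in CD70TG*Ifng-/- against Ifng-/-.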
